A study of Homo sapiens with 15 samples.

Results

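The ATF4 amino acid response and the cytosolic tRNA synthetases were followed as a set of 41 genes, taken by gene symbol from the tables of both cell lines. All 41 were found in both tables, among 15320 genes that the tables share, and all 41 passed edgeR's filter on low counts in every model. By role they comprised 11 transcription factors, other regulators and genes grouped here as ATF4 targets, and 3 enzymes of asparagine and proline synthesis. The others were 7 enzymes of serine synthesis and one-carbon metabolism, 4 amino acid transporters and 16 cytosolic aminoacyl-tRNA synthetases. The rule that picks the 41 genes uses gene names alone, but they were chosen with earlier results of these data known. Their shares, set beside those of all genes below, are therefore a description.

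MRC5 is a human fetal lung fibroblast line, and H69 and H196 are established small cell lung cancer (SCLC) lines, H69 of the neuroendocrine (NE) type and H196 of the non-NE type. The 5 groups were MRC5 cells grown alone (MRC5_Mo), MRC5 cells that had shared medium with H69 (MRC5_CoH69) or H196 (MRC5_CoH196), H196 cells grown alone (H196_Mo) and H196 cells that had shared medium with MRC5 cells (H196_Co). No drug or genetic change was applied to any group, and partners were kept apart by a porous membrane over a week of culture. Each group had 3 libraries of poly(A) RNA, 15 in all. The study grew the fibroblasts in MEM and the tumour lines in RPMI, and the medium of the co-cultures was not given in the sources used here. Standard MEM lacks several non-essential amino acids that RPMI contains, among them serine and asparagine. The partner cells and a change of medium therefore cannot be told apart in any comparison of a co-culture with a mono-culture. Each line stands for 1 fibroblast strain or 1 tumour, and nothing in the labels says that the libraries came from separate cultures, so p-values measure the spread between these libraries, which may be technical.

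ATF4 is the transcription factor through which cells answer a shortage of amino acids and other stresses. When eIF2 kinases such as GCN2 or PERK phosphorylate the translation factor eIF2, most protein synthesis slows while ATF4 mRNA is translated better, and ATF4 then switches on genes for amino acid synthesis and uptake, for tRNA charging and for feedback on the pathway itself. Since ATF4 is controlled mainly in translation, its mRNA level need not follow its protein, which was not analysed here.

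ATF4 binds DNA as a dimer with C/EBP family proteins at a C/EBP-ATF composite element, whose letters were searched as TGATGNAA and, on the other strand, TTNCATCA. RefSeq promoter windows on GRCh38.p14, running from 250 bases before to 50 bases after an annotated start, were matched for 34 of the 41 genes. The element stood in at least 1 window of 15 of these 34 genes (44.1%), and of 4.46% of the 27305 genes in the same table. Its C form, TGATGCAA, stood in windows of 9 of the 34 (26.5%), against 1.08% of all genes. Of the 13 cytosolic synthetases that were matched, 7 held the element and 6 held the C form. The element was found in 1 of 14 matched mitochondrial synthetases and in 0 of 6 other matched cytosolic synthetases and complex subunits. Of 14 other matched genes known as ATF4 targets 2 held it, and of 17 other matched amino acid transporters 3 did. Some windows overlap, and a match of letters is a description of the sequence and not a mapped binding site. The sites of the regulators and enzymes CHAC1, CEBPG, ASNS and MTHFD1L and of the synthetases AARS1, CARS1, IARS1, MARS1 and TARS1 are shown because these genes recur below with large, small or no change in the fibroblasts. Each is printed in the direction of the gene with the element in capitals, with 11 bases on either side, and position counts from 0 at the annotated start to the first printed capital.
CHAC1: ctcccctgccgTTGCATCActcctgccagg
CEBPG: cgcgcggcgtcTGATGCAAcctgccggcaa
ASNS: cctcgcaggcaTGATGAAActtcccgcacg
MTHFD1L: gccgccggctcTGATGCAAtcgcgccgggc
AARS1: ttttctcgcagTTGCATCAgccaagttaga
CARS1: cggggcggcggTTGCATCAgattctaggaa
IARS1: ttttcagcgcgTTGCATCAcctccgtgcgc
MARS1: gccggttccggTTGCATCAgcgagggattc
TARS1: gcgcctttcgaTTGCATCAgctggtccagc

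The CHAC1 element lay at position -209 (chr15:40953251-40953280, plus strand), and that of AARS1 at -187 (chr16:70289675-70289704, minus strand). The ASNS site, the known amino acid response element of this gene, lay at -68 (chr7:97872458-97872487, minus strand), and the CEBPG site at -42 (chr19:33374060-33374089, plus strand). For MTHFD1L the printed window lay at chr6:150866346-150866375 on the plus strand, with the element at -129, -90 or 24 depending on which of its annotated starts is taken. The remaining synthetase sites sat close to their starts, at -2 in CARS1 (chr11:3057407-3057436, minus strand), -13 in IARS1 (chr9:92293692-92293721, minus strand), -4 in MARS1 (chr12:57488053-57488082, plus strand) and 2 in TARS1 (chr5:33440956-33440985, plus strand), the last in the first exon. Windows without these letters say nothing about elements farther away.

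Library totals ran from 16073597 to 19170560 counts, and the lowest count of any of the 41 genes in any library was 64, for ATF3. Libraries are compared below in CPM, which are counts relative to the library total, scaled by a TMM factor within each cell line, so CPM values serve comparisons of 1 gene within 1 line. Levels of different genes are compared in FPKM, which is per length. Log2 changes and differences come from TMM-scaled counts wherever FPKM is not named. TMM factors were 0.916 to 0.941 in MRC5_CoH196 libraries and 1.03 to 1.05 in the other MRC5 libraries, so the scaling moves with the group. All 10 fibroblast markers, such as COL1A1 and PDGFRB, were above 1 FPKM in every MRC5 library, with summed levels of 5176 to 5780 FPKM in MRC5_Mo and 2566 to 2718 in MRC5_CoH196. That lower sum lay mostly in the collagens COL1A1, at a mean of 2628 and then 785 FPKM, and COL1A2, at 1974 and then 1191 FPKM. Of the 10 markers 5 rose and 4 fell in MRC5_CoH196 cells, with a median log2 fold change of 0.04, and on FPKM 2 rose and 5 fell. The fibroblast sum was 0.50 to 0.64 FPKM in H196_Mo libraries and 0.53 to 0.60 in H196_Co libraries. Of 7 NE markers, CHGB and SYP were above 1 FPKM in H196 libraries, and none was in MRC5 libraries, where the NE sum, over the 3 that this table lists, was at most 0.34 FPKM. Of 6 epithelial markers KRT8, KRT18 and KRT19 were above 1 FPKM in every MRC5_Mo library, and KRT7 as well in every MRC5_CoH196 and MRC5_CoH69 library. Among the 4 that were tested, KRT7, KRT8 and KRT19 rose as DEGs in MRC5_CoH196 cells and KRT18 fell, with a median of 0.91 and sums of 107 to 113 FPKM in MRC5_Mo and 109.8 to 117 in MRC5_CoH196. In H196_Co cells 2 of 3 tested epithelial markers rose, with sums of 179 to 189 FPKM in H196_Mo and 205 to 233 in H196_Co. The non-NE markers REST, YAP1 and VIM all rose in MRC5_CoH196 cells. The part of these markers in the results below was not tested. In bulk RNA, fewer cells with a transcript and less of it per cell cannot be told apart.

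The first question was how the set answered to H196 cells in the fibroblasts. In MRC5_CoH196 cells 26 of the 41 genes rose and 9 fell against MRC5_Mo cells at an adjusted p under 0.05, while 37.2% of the 12819 tested genes rose and 37.1% fell. On the log2 scale the median change was 0.39 over the 41 genes and -0.00 over all tested genes. A DEG is a gene that passed this test with a log2 fold change beyond 0.58 in either direction. By that rule 16 members were higher, against 17.2% of all genes, and 4 were lower, against 14.7%. On FPKM 11 members were DEGs upward and 7 downward, and 915 and 2082 of all genes. The libraries of both groups did not overlap for 36 members, where 75.6% of all genes showed no overlap. Tests were two-sided, by edgeR's quasi-likelihood method with Benjamini-Hochberg adjustment over all tested genes, and an exact permutation test of a single gene with 3 libraries against 3 cannot give a p below 0.1. With FPKM in place of TMM-scaled counts the median of all genes moved to -0.13, the calls of all genes moved from 4765 higher and 4757 lower to 3299 and 6178, and those of the set to 21 higher and 15 lower. Small changes of either sign thus depend on the scale, and the genes affected are named with their group.

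**Figure D1:**
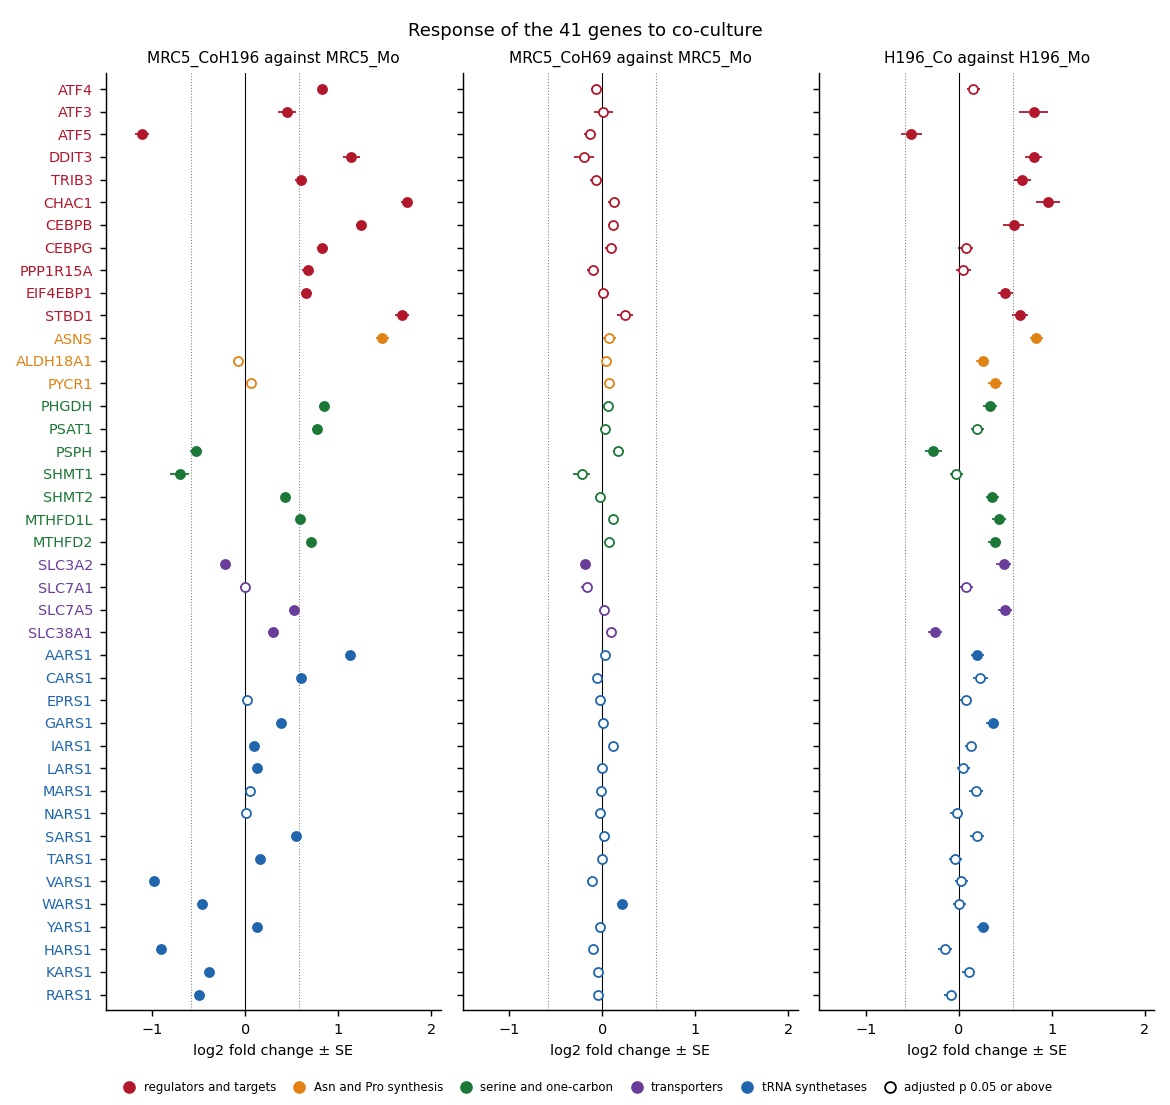
Log2 fold change (x axis, points) with its standard error (bars) for each of the 41 genes (rows, coloured by role) in the 3 comparisons of a co-culture with its mono-culture. Filled points passed an adjusted p of 0.05 and dotted lines mark a log2 fold change of 0.58 either way; most points leave 0 in MRC5_CoH196 (26 higher, 9 lower), 2 are filled in MRC5_CoH69, and 22 in H196_Co (19 higher, 3 lower).

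Among the regulators and the ATF4 targets grouped with them, 10 of 11 rose in MRC5_CoH196 cells and ATF5 fell, with the same directions on FPKM. Of all 12819 tested genes 37.2% rose and 37.1% fell, and on FPKM 3299 rose and 6178 fell. The median log2 fold change of the 11 was 0.82. ATF4 itself stood at 292, 284 and 281 CPM in the MRC5_Mo libraries and at 543, 469 and 504 CPM in the MRC5_CoH196 libraries. Every co-culture library was far above the highest mono-culture library, and ATF4 rose by 0.82 ± 0.05 (SE, n = 3 per group) on the log2 scale, or 1.77-fold (adjusted p = 5.66e-14). In the files' annotation ATF4 overlaps MIEF1 on the same strand.

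DDIT3 encodes CHOP, a transcription factor that ATF4 induces under sustained stress. It was measured at 14.96, 12.1 and 12.1 CPM in MRC5_Mo and at 33.5, 26.8 and 25.9 CPM in MRC5_CoH196, without overlap. DDIT3 rose by 1.14 ± 0.09 (adjusted p = 4.70e-11), or 2.20-fold. The 3' ends of DDIT3 and MARS1 overlap by 68 bases on opposite strands, and strand use in counting was not given in the sources used here. MARS1 did not pass with TMM scaling and passed as lower on FPKM. The part of this overlap in the counts was not tested.

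The largest change of all 41 genes was that of CHAC1, an enzyme that breaks down glutathione. CHAC1 counted 74.05, 75.0 and 72.5 CPM in MRC5_Mo libraries and 269, 221 and 248 CPM in MRC5_CoH196 libraries. The groups were widely separated, and the rise was 3.33-fold, or 1.73 ± 0.06 on the log2 scale (adjusted p = 2.01e-18). STBD1, a protein that binds glycogen, came next, from 9.96, 11.7 and 10.8 CPM to 34.1, 32.8 and 37.0 CPM. Its log2 fold change was 1.68 ± 0.08 (adjusted p = 4.00e-16), and it shares its whole listed length with the readthrough gene FAM47E-STBD1, so its reads may be split. The C/EBP family partner CEBPB moved from 59.95, 53.5 and 58.5 CPM to 138, 127 and 143 CPM, again without overlap. That was a log2 rise of 1.25 ± 0.05 (adjusted p = 9.94e-17).

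The other genes of this group that rose did so by less. CEBPG, another partner of ATF4, changed by 0.83 ± 0.06 on the log2 scale. PPP1R15A (GADD34), the phosphatase subunit that restores eIF2 activity, changed by 0.67 ± 0.06. EIF4EBP1, a repressor of cap-dependent translation, changed by 0.66 ± 0.06. These 3 genes, like TRIB3 (0.60 ± 0.07), a pseudokinase that restrains ATF4, were past the limit of a DEG. On FPKM the values of PPP1R15A (0.49), EIF4EBP1 (0.49) and TRIB3 (0.41) stayed under that limit. ATF3, a factor that ATF4 induces, stayed under it at 0.45 ± 0.10, from 8.33 to 10.1 CPM in MRC5_Mo to between 11.9 and 13.3 CPM in MRC5_CoH196.

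ATF5, a relative of ATF4 with a similar translational control, was the exception. Its CPM were 26.5, 27.8 and 28.01 in MRC5_Mo and 12.9, 11.6 and 13.7 in MRC5_CoH196. All co-culture libraries lay well below the mono-culture, and ATF5 fell by 1.11 on the log2 scale (SE 0.08, adjusted p = 1.61e-12). ATF5 overlaps NUP62 and IL4I1, which lie on the other strand.

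**Figure D2:**
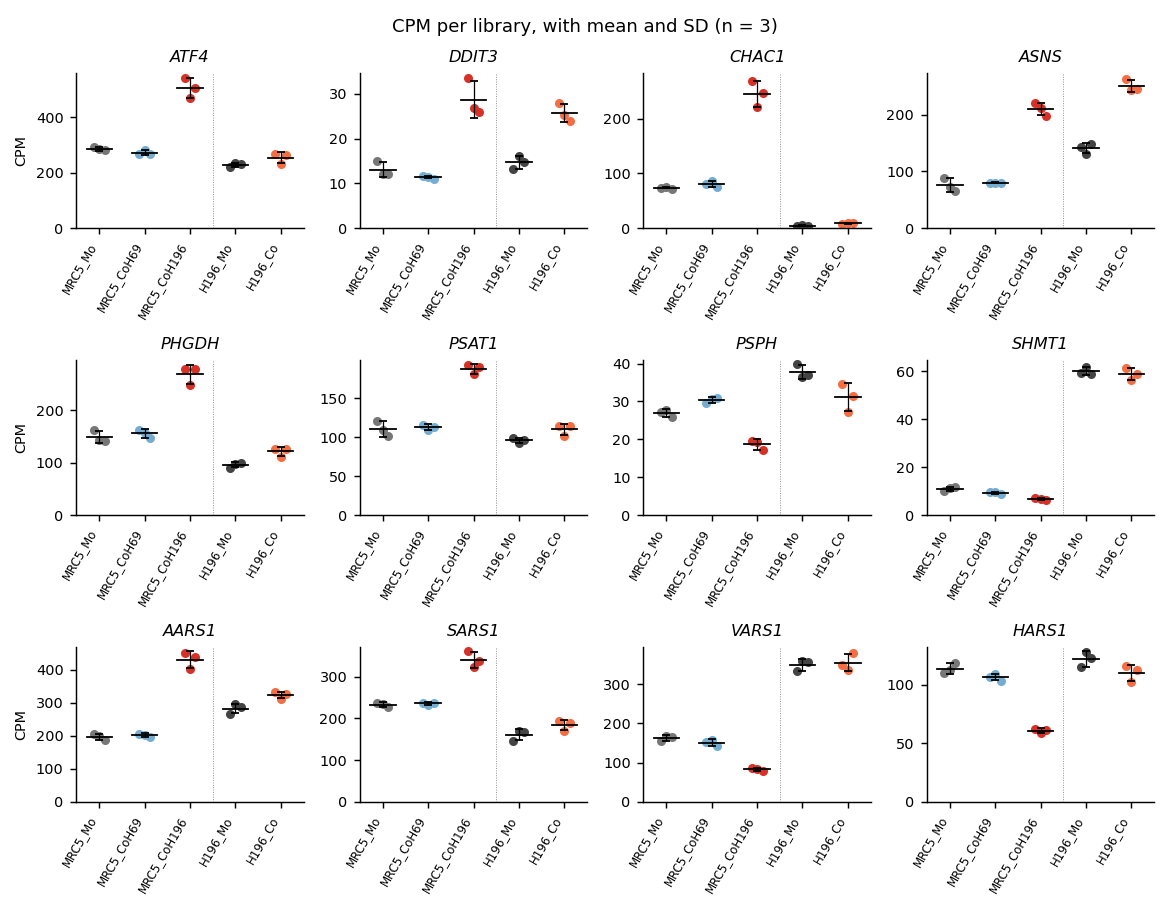
CPM of each library (points) with the mean (line) and SD (bars, n = 3) for 12 of the genes in the 5 groups, with separate TMM scaling left and right of the dotted line. MRC5_CoH196 points stand clear of MRC5_Mo and MRC5_CoH69 in all 12 panels, above them for ATF4, DDIT3, CHAC1, ASNS, PHGDH, PSAT1, AARS1 and SARS1 and below them for PSPH, SHMT1, VARS1 and HARS1.

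The enzymes of amino acid synthesis divided by pathway. ASNS, which makes asparagine from aspartate and glutamine, stood at 88.8, 73.4 and 64.9 CPM in MRC5_Mo and at 221, 211 and 198 CPM in MRC5_CoH196. No co-culture library came near the mono-culture range, and ASNS rose 2.77-fold, or by 1.47 ± 0.07 on the log2 scale (adjusted p = 8.21e-16). The proline enzymes ALDH18A1 and PYCR1 did not pass, with log2 fold changes of -0.08 ± 0.04 and 0.06 ± 0.05. On the FPKM scale both passed as lower.

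Serine is made from a glycolytic intermediate in 3 steps, and its carbon feeds the folate cycle. Of the 7 genes of serine synthesis and one-carbon metabolism, 5 rose and 2 fell, where 37.2% and 37.1% of all tested genes did. The median log2 fold change of the 7 was 0.59. The same 5 and 2 passed in these directions on FPKM, where 3299 of all genes rose and 6178 fell. PHGDH, the enzyme of the first step, measured 162, 144 and 142 CPM in MRC5_Mo and 278, 247 and 278 CPM in MRC5_CoH196, a log2 rise of 0.84 ± 0.05 (adjusted p = 5.97e-13). PSAT1, the second enzyme, changed from between 101 and 121 CPM to between 181 and 192 CPM, by 0.77 ± 0.05. Neither gene had overlapping groups.

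PSPH, the last enzyme of serine synthesis, went the other way. Its CPM were 27.3, 27.7 and 25.9 in MRC5_Mo and 19.5, 19.4 and 17.1 in MRC5_CoH196. The groups did not overlap and PSPH fell by 0.53 on the log2 scale (SE 0.07, adjusted p = 1.12e-07). Of the 41 genes the 3 that encode mitochondrial folate enzymes rose, MTHFD2 by 0.71 ± 0.05, MTHFD1L by 0.59 ± 0.05 and SHMT2 by 0.43 ± 0.05. On FPKM MTHFD1L was under the limit of a DEG (0.46) and PSPH was past it (-0.64). SHMT1, the cytosolic serine hydroxymethyltransferase, was instead at 10.1, 11.1 and 11.6 CPM in MRC5_Mo and at 7.10, 6.79 and 6.15 CPM in MRC5_CoH196. It fell by 0.71 (SE 0.10, adjusted p = 8.60e-07), so the paired compartment forms SHMT1 and SHMT2 moved in opposite directions.

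A further list of other one-carbon and proline enzymes gives the background to this. Among its 16 tested genes 5 rose and 11 fell in MRC5_CoH196 cells, where 37.2% and 37.1% of all tested genes did. The median log2 fold change of the list was -0.62. The largest falls were in PYCR3 (-2.06 ± 0.13), a cytosolic proline enzyme, in MTHFD1 (-1.33 ± 0.06), the cytosolic folate enzyme, and in MAT2A (-1.26 ± 0.06), which makes S-adenosylmethionine. Mitochondrial genes of this list also fell, among them MTHFD2L (-1.26 ± 0.20), an isozyme of MTHFD2, and GCSH (-0.90 ± 0.09) of the glycine cleavage system. ALDH1L2, a mitochondrial folate enzyme, rose by 0.62 ± 0.06, AMT, also of the glycine cleavage system, by 0.64 ± 0.12, and MTR, methionine synthase, by 0.57 ± 0.05.

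Of the 4 amino acid transporters 2 rose and 1 fell with TMM scaling, and 1 rose and 2 fell on FPKM. SLC7A5 (LAT1), the light chain that carries large neutral amino acids, was at 175, 188 and 177 CPM in MRC5_Mo and at 276, 244 and 257 CPM in MRC5_CoH196, with no overlap, and rose by 0.53 ± 0.05 (adjusted p = 3.80e-09). Its heavy chain SLC3A2 (CD98) fell by 0.21 (SE 0.05, adjusted p = 0.000585), from 169, 173 and 171 CPM to 162, 134 and 145 CPM. The subunits of this 2-part carrier thus moved in opposite directions. SLC38A1, a glutamine transporter, rose by 0.29 ± 0.05 with TMM scaling but did not pass on FPKM, where its log2 fold change was positive as well. SLC7A1, the carrier of cationic amino acids, had a log2 fold change of -0.00 ± 0.06 and passed as lower on FPKM. In the list of 18 other tested amino acid transporters, 8 rose and 5 fell, against 37.2% and 37.1% of all tested genes. On FPKM 7 of the 18 rose and 7 fell. With TMM scaling 4 of the 18 were DEGs upward and 4 downward, against 17.2% and 14.7% of all tested genes. Those with the largest rise were SLC6A6, the taurine transporter (2.01 ± 0.05), SLC1A3, a glutamate transporter (1.83 ± 0.43), and SLC38A5, a glutamine transporter (1.12 ± 0.06). SLC1A3 was low in both groups, at means of 0.20 and 0.74 CPM. The largest falls were those of SLC43A2, a carrier of large neutral amino acids (-1.74 ± 0.08), SLC38A7, a lysosomal glutamine transporter (-0.78 ± 0.06), and SLC7A6, a light chain of cationic amino acid exchange (-0.60 ± 0.05).

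The 16 cytosolic synthetases, which attach amino acids to their tRNAs, did not move as a block in MRC5_CoH196 cells. With TMM scaling 8 rose and 5 fell, where 37.2% and 37.1% of all tested genes did. Their median log2 fold change was 0.07. On FPKM 4 rose and 8 fell, with a median of -0.10, where 3299 and 6178 of all 12819 tested genes did. The 4 that rose on both scales were AARS1, CARS1, SARS1 and GARS1, and the 5 that fell with TMM scaling also had negative values on FPKM. On FPKM CARS1 (0.42) was under the limit of a DEG, and WARS1 (-0.62) and RARS1 (-0.65) were past it.

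AARS1, the alanyl-tRNA synthetase, stood at 205, 198 and 187 CPM in MRC5_Mo and at 450, 401 and 437 CPM in MRC5_CoH196. It had the largest rise of the 16, at 2.18-fold, or 1.13 ± 0.05 on the log2 scale (adjusted p = 1.29e-16). CARS1, for cysteine, went from 117, 108 and 109 CPM to 171, 164 and 172 CPM, by 0.60 ± 0.05. SARS1, for serine, changed from between 226 and 237 CPM to between 323 and 360 CPM, by 0.55 ± 0.04. GARS1, for glycine, changed from between 263 and 279 CPM to between 341 and 362 CPM, by 0.38 ± 0.04. The groups of these 4 genes did not overlap. In the files' annotation the interval listed for AARS1 overlaps those of 4 other genes, and that of GARS1 overlaps NOD1. Such overlaps are also listed for other members, among them MTHFD2, EPRS1 and YARS1. Their part in the counts was not tested.

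Valine, histidine, arginine, tryptophan and lysine synthetases fell. VARS1 was at 155, 168 and 166 CPM in MRC5_Mo and at 85.8, 84.2 and 78.4 CPM in MRC5_CoH196, a fall of 0.98 on the log2 scale (SE 0.05, adjusted p = 7.46e-15). HARS1 was at 110, 113 and 119 CPM and then at 62.6, 58.7 and 61.0 CPM, and fell by 0.90 (SE 0.05, adjusted p = 9.91e-15). Both groups of co-culture libraries were tight and lay wholly below the mono-culture. Smaller falls were measured for RARS1 (-0.49 ± 0.05), WARS1 (-0.47 ± 0.05) and KARS1 (-0.39 ± 0.05).

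For the remaining 7 synthetases the sign depends on the scaling. TARS1 (0.16 ± 0.04), LARS1 (0.13 ± 0.05), YARS1 (0.13 ± 0.04) and IARS1 (0.09 ± 0.04) passed as higher with TMM scaling and were below 0, without passing, on FPKM. IARS1 had an adjusted p of 0.0396, which was lost in 7 of the 9 models that leave out a library, and LARS1 lost its call without MRC5_CoH196 replicate 3. MARS1, EPRS1 and NARS1 did not pass with TMM scaling, at 0.05 ± 0.05, 0.02 ± 0.04 and 0.01 ± 0.04, and passed as lower on FPKM. IARS1, MARS1, TARS1 and NARS1 had TMM-scaled changes of 0.16 or less. They carry the same C form of the element close to an annotated start, as CARS1 does. The NARS1 site, not printed above, lay at 14. Among the 34 genes matched to promoter windows, the element stood in 11 of 22 that rose, in 1 of 7 that fell and in 3 of 5 that did not pass. Those calls are with TMM scaling, and IARS1 and TARS1 are among the 11. Of the matched DEGs, 6 of 15 upward and 0 of 3 downward held the element.

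**Figure D3:**
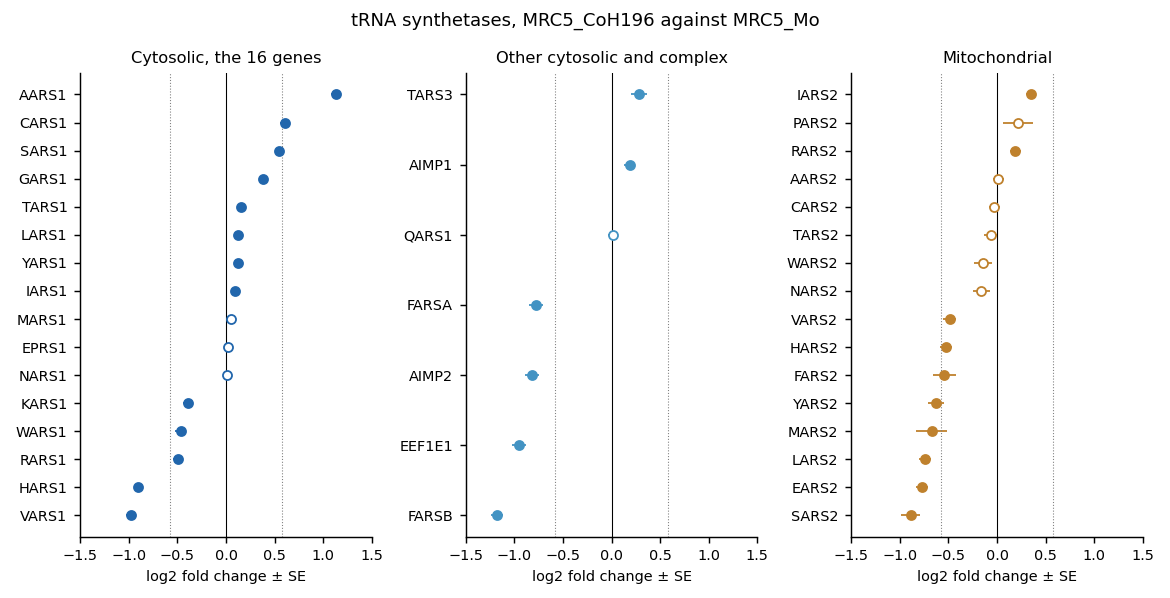
Log2 fold change with its standard error in MRC5_CoH196 against MRC5_Mo cells for the 16 cytosolic synthetases, for 7 other cytosolic synthetases and complex subunits, and for 16 mitochondrial synthetases, ordered by value (filled, adjusted p under 0.05). AARS1 stands apart on the right of the first panel at 1.13, FARSB is lowest in the second at -1.18, and 8 filled points lie below 0 in the third against 2 above.

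The rest of the charging machinery was followed by lists. Both subunits of the phenylalanyl enzyme fell, FARSB by 1.18 (SE 0.06) and FARSA by 0.78. EEF1E1 and AIMP2, scaffold proteins of the multi-synthetase complex, had log2 fold changes of -0.95 ± 0.07 and -0.82 ± 0.07. Of 7 other cytosolic genes followed 2 rose and 4 fell, and on FPKM 0 rose and 5 fell. Of 16 mitochondrial synthetases 2 rose and 8 fell (1 and 13 on FPKM), with a median log2 fold change of -0.32. The largest falls were in SARS2 (-0.89 ± 0.10), EARS2 (-0.77 ± 0.07) and LARS2 (-0.74 ± 0.06). Of all 12819 tested genes 37.2% rose and 37.1% fell, and on FPKM 3299 rose and 6178 fell.

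Genes upstream of ATF4 and further targets completed the fibroblast comparison. Among 15 genes for eIF2 kinases, eIF2, eIF2B and their regulators, 4 rose and 7 fell, where 37.2% and 37.1% of all tested genes did. The largest fall was in EIF2B3 (-1.43 ± 0.07), a subunit of the factor that recharges eIF2 with GTP. Of 16 other tested genes known as ATF4 targets, 14 rose and 1 fell, with a median log2 fold change of 0.80. The leading ones were DDIT4, an inhibitor of mTORC1 (2.59 ± 0.06), the lipoprotein receptor VLDLR (2.55 ± 0.07) and KLHL24, a substrate adaptor of ubiquitin ligases (2.40 ± 0.08). SLC7A11, the cystine transporter, fell by 0.51 (SE 0.05). Several of these genes also answer to other stimuli, such as low oxygen for DDIT4.

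ER chaperones are induced by the unfolded protein response, which can also raise ATF4 through PERK. Of the 16 genes on this list 10 fell and 3 rose in MRC5_CoH196 cells, where 37.1% and 37.2% of all tested genes did. The median log2 fold change of the list was -0.37. SDF2L1 (-1.63 ± 0.10), HYOU1 (-1.42 ± 0.05) and DNAJB11 (-0.94 ± 0.06), all part of the folding machinery, fell most. HERPUD1, an ER degradation gene that ATF4 can induce as well, rose by 0.65 ± 0.05.

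Few of the genes passed in the co-culture with H69 cells. Of the 41 genes, 1 rose and 1 fell in MRC5_CoH69 against MRC5_Mo cells, while 3.78% of all tested genes rose and 2.93% fell. Their median log2 fold change was 0.01 and values ran from -0.22 to 0.24. None was a DEG by edgeR's quasi-likelihood test or by DESeq2, and DEGs made up 0.554% of all genes. An unadjusted p under 0.05 was found for 11 of the 41 and for 20.1% of all genes. The libraries did not overlap for 10 members, and for 25.7% of all genes. WARS1, the tryptophanyl enzyme, was at 313, 301 and 306 CPM against 296, 249 and 248 in MRC5_Mo, all above the mono-culture, and rose by 0.21 ± 0.05 (adjusted p = 0.0113). SLC3A2 fell by 0.18 (SE 0.05, adjusted p = 0.0310), from 169, 173 and 171 CPM down to 149, 153 and 151 CPM, with no overlap. WARS1 thus had calls of opposite sign in the 2 fibroblast co-cultures, since it was at 189, 193 and 191 CPM in MRC5_CoH196. The WARS1 call was lost without MRC5_CoH69 replicate 1, MRC5_Mo replicate 2 or MRC5_Mo replicate 3, and that of SLC3A2 without any one MRC5_CoH69 library or without MRC5_Mo replicate 2 or 3. On FPKM neither passed.

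ATF4 was at 266, 283 and 269 CPM in MRC5_CoH69, and its log2 fold change of -0.07 ± 0.05 did not pass. DDIT3 was at 11.7, 11.5 and 11.1 CPM, below all MRC5_Mo libraries, with a log2 fold change of -0.19 ± 0.11 that did not pass either. CHAC1 (0.13 ± 0.06), ASNS (0.08 ± 0.07), PHGDH (0.06 ± 0.06) and AARS1 (0.03 ± 0.05) likewise did not pass.

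Set against each other, both co-cultures of fibroblasts differed. In MRC5_CoH196 against MRC5_CoH69 cells 26 of the 41 genes were higher and 9 lower, where 35.7% and 36.6% of all genes were. Of the 41, 15 were DEGs upward and 5 downward, against 15.2% and 13.1% of all genes, and 36 had groups that did not overlap, against 73.2%. On FPKM 9 were DEGs upward and 6 downward, with 821 and 1746 of all genes, and TRIB3, CEBPG, EIF4EBP1, PSAT1, MTHFD2 and CARS1 were the 6 no longer past the limit. CHAC1 was higher by 1.61 ± 0.06, STBD1 by 1.44 ± 0.07, ASNS by 1.40 ± 0.07, DDIT3 by 1.33 ± 0.09 and AARS1 by 1.09 ± 0.05. This comparison and the one with MRC5_Mo share the MRC5_CoH196 libraries, so they are not independent. WARS1 was lower by 0.68 (SE 0.05).

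The tumour cells of the same co-culture were tested in their own model. In H196_Co against H196_Mo cells 19 of the 41 genes rose and 3 fell, while 12% of the 12806 tested genes rose and 7.78% fell. On the log2 scale the median change was 0.20 over the 41 genes and -0.00 over all genes. As DEGs 7 were higher, against 3.26% of all genes, and none was lower by edgeR's quasi-likelihood test or by DESeq2, against 0.601%. Of the 41, 27 had an unadjusted p under 0.05, as had 33.5% of all genes. Libraries did not overlap for 24 of the 41, and for 37.2% of all genes. On FPKM 17 of the 41 rose and 4 fell, while the calls of all genes moved from 1542 higher and 996 lower to 930 and 1627. There 3 of the 41 were DEGs upward, and 149 of all genes.

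CHAC1 again had the largest change, from 4.47, 4.91 and 4.16 CPM in H196_Mo to 8.35, 8.58 and 9.36 CPM in H196_Co, a log2 rise of 0.96 ± 0.13 (adjusted p = 2.35e-05). ASNS was at 143, 131 and 148 CPM and then at 263, 243 and 245 CPM, a log2 rise of 0.83 ± 0.07 (adjusted p = 5.10e-08). DDIT3 went from 13.3, 16.1 and 14.8 CPM to 27.9, 25.2 and 24 CPM, by 0.80 ± 0.10 (adjusted p = 5.05e-06). None of these 3 genes had overlapping groups. ATF3 rose by 0.80 ± 0.15 (adjusted p = 0.00105), from 5.48, 3.61 and 4.44 CPM to 8.65, 6.66 and 8.26 CPM. TRIB3 was at 17.7, 19.5 and 19.9 CPM in H196_Mo and at 33.5, 30.2 and 27.9 CPM in H196_Co, a rise of 0.68 ± 0.09 (adjusted p = 2.04e-05). STBD1 (0.65 ± 0.09) and CEBPB (0.59 ± 0.11) were the other DEGs. Except for ASNS, these 7 genes all belong to the group of regulators and ATF4 targets. On log2(FPKM + 1) ATF3 (0.57), TRIB3 (0.54), STBD1 (0.52) and CEBPB (0.48) were under the limit of a DEG.

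ATF4 did not pass in the tumour cells. It was at 220, 235 and 230 CPM in H196_Mo and at 269, 231 and 263 CPM in H196_Co, where the lowest co-culture library fell inside the mono-culture range. Its log2 fold change was 0.15 ± 0.07 (adjusted p = 0.140). Without H196_Co replicate 2 it passed, at 0.21 (adjusted p = 0.0403), and over the alternatives run its adjusted p reached 0.456. CEBPG (0.07 ± 0.08) and PPP1R15A (0.04 ± 0.08) did not pass either. ATF5 fell, from 16.3, 23.5 and 21.4 CPM to 13.98, 14.8 and 14.2 CPM, by 0.51 on the log2 scale (SE 0.11, adjusted p = 0.00359).

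The genes of 2 proline enzymes rose in H196_Co cells with TMM scaling. ALDH18A1, which makes the common precursor of proline and ornithine, was at 53.0, 55.8 and 55.9 CPM in H196_Mo and at 63.2, 65.4 and 67.9 CPM in H196_Co. PYCR1, the last enzyme, was at 90.5, 96.1 and 94.6 CPM and then at 125, 111 and 132 CPM. They rose by 0.25 ± 0.07 (adjusted p = 0.0152) and 0.39 ± 0.08 (adjusted p = 0.00115), and the ALDH18A1 call was lost without H196_Co replicate 3, without H196_Mo replicate 3 and on FPKM. MTHFD1L (0.43 ± 0.08), MTHFD2 (0.38 ± 0.07), SHMT2 (0.36 ± 0.07) and PHGDH (0.34 ± 0.07) rose. PSAT1 changed by 0.20 ± 0.07 without passing (adjusted p = 0.0577), and the value of SHMT1 was -0.03 ± 0.07. PSPH was at 39.8, 36.3 and 36.9 CPM and then at 34.7, 27.2 and 31.5 CPM, and fell by 0.28 (SE 0.09, adjusted p = 0.0338), a call lost without H196_Co replicate 2 or 3 or H196_Mo replicate 1 or 3.

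Both chains of the SLC7A5 carrier rose in the tumour cells. SLC7A5 was at 208, 223 and 206 CPM and then at 285, 291 and 321 CPM, a rise of 0.49 ± 0.07 (adjusted p = 4.47e-05). SLC3A2 rose by 0.48 ± 0.08 (adjusted p = 0.000203), from 91.6, 106 and 103 CPM to 150, 128 and 141 CPM. SLC38A1 fell by 0.26 (SE 0.08, adjusted p = 0.0249), from 148, 138 and 143 CPM to 105, 128 and 126 CPM, and lost its call without H196_Co replicate 1. Without H196_Mo replicate 1 or replicate 3, 1 gene of the 41 in place of 3 was called lower, because both PSPH and SLC38A1 lost their calls.

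Of the 16 synthetases 3 rose in H196_Co cells and none fell by edgeR's quasi-likelihood test or by DESeq2. By edgeR's test 12% of all tested genes rose and 7.78% fell. An unadjusted p under 0.05 was found for 6 of the 16 and for 33.5% of all genes. The median log2 fold change of the 16 was 0.09. The 3 that rose were GARS1 (0.36 ± 0.07, adjusted p = 0.000918), YARS1, for tyrosine (0.25 ± 0.07, adjusted p = 0.00969), and AARS1 (0.20 ± 0.07, adjusted p = 0.0477). The AARS1 call was lost without any one of the 6 libraries except H196_Co replicate 2, with DESeq2 size factors, without a filter on low counts and on FPKM. VARS1 was at 332, 358 and 355 CPM in H196_Mo and at 349, 337 and 379 CPM in H196_Co, with a log2 fold change of 0.03 ± 0.07. HARS1 had -0.15 ± 0.07, which passed as lower on FPKM.

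The further lists were counted in H196_Co cells as well, where 12% of all tested genes rose and 7.78% fell. Of 15 other tested ATF4 targets 9 rose and 1 fell, led by STC2, a secreted glycoprotein (1.74 ± 0.08), DDIT4 (1.61 ± 0.08) and VLDLR (0.90 ± 0.09). No mitochondrial synthetase passed by edgeR's quasi-likelihood test or with DESeq2 size factors, and 1 of 16 had an unadjusted p under 0.05. With TMM scaling 11 of the 16 had values below 0, and 5 had groups that did not overlap, against 37.2% of all genes. Calls of this list on FPKM, where 930 of all genes rose and 1627 fell, are not given here. Of 16 ER chaperone genes DNAJC3 fell, by 0.31 (SE 0.09), and no other passed. Of 16 other tested amino acid transporters 2 rose, SLC43A1 by 0.69 ± 0.19 and SLC1A5 by 0.29 ± 0.07, and 4 fell, with a median of -0.12 and the largest falls in SLC38A7 (-0.35 ± 0.10), SLC38A2 (-0.33 ± 0.07) and SLC7A2 (-0.30 ± 0.10). Of 17 other tested one-carbon and proline enzymes 4 rose and 1 fell, with a median of 0.05, led by AMT (0.59 ± 0.15), and on FPKM 2 rose and 4 fell. The one that fell was MTHFD2L (-0.31 ± 0.11). Among the 15 genes for eIF2 kinases, eIF2, eIF2B and their regulators EIF2S2 rose, by 0.23 ± 0.07, and no other passed, and of 7 other cytosolic synthetases and complex subunits none passed by edgeR's quasi-likelihood test or on FPKM, with 0 at an unadjusted p under 0.05.

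Whether both partners differed in response was tested in a joint model of all 15 libraries, as the change in MRC5_CoH196 against MRC5_Mo minus the change in H196_Co against H196_Mo. The test passed for 25 of the 41 genes and for 51.2% of the 13585 tested. Among those of the 41 that passed, 14 differences were positive and 11 negative, against 24.1% and 27.1% of all tested genes. Beyond a log2 difference of 0.58 there were 8 positive and 5 negative, against 12.1% and 12.6%. The median difference over the 41 was 0.01, with -0.03 for all genes. The lines differ in culture history and lie in separate tables, and partner, line and table cannot be told apart in this comparison.

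ATF4 rose by 0.64 ± 0.08 more on the log2 scale in the fibroblasts (adjusted p = 2.63e-07), CEBPG by 0.73 ± 0.10, PPP1R15A by 0.60 ± 0.10 and CEBPB by 0.63 ± 0.12. STBD1 (1.0 ± 0.11), CHAC1 (0.75 ± 0.15) and ASNS (0.61 ± 0.10) rose in both lines and by more in the fibroblasts. For ATF3 (-0.38 ± 0.18), DDIT3 (0.31 ± 0.14), TRIB3 (-0.11 ± 0.12) and EIF4EBP1 (0.13 ± 0.10) the difference did not pass, which does not show that they responded alike. The steps of serine synthesis differed in sign, with positive differences at PHGDH (0.48 ± 0.09) and PSAT1 (0.54 ± 0.09), although PSAT1 did not pass in H196_Co on its own, and a negative one at PSPH (-0.28 ± 0.11), which fell in both lines. The PSPH difference did not pass with DESeq2 size factors. The proline genes ALDH18A1 and PYCR1 had the reverse, at -0.36 ± 0.07 and -0.36 ± 0.09.

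The synthetases gave the widest spread of differences, from 0.90 ± 0.08 for AARS1 (adjusted p = 2.39e-10) to -1.03 ± 0.08 for VARS1 (adjusted p = 4.26e-11). HARS1 (-0.78 ± 0.08), KARS1 (-0.52 ± 0.07), WARS1 (-0.50 ± 0.09) and RARS1 (-0.43 ± 0.08) also had negative differences, and CARS1 (0.35 ± 0.09) and SARS1 (0.33 ± 0.09) positive ones. These are differences between responses, not between levels of the lines. GARS1 had a difference of -0.01 ± 0.07, which did not pass. SLC3A2 and SLC38A1 had called changes of opposite sign in both lines, with differences of -0.72 ± 0.09 and 0.53 ± 0.09.

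**Figure D4:**
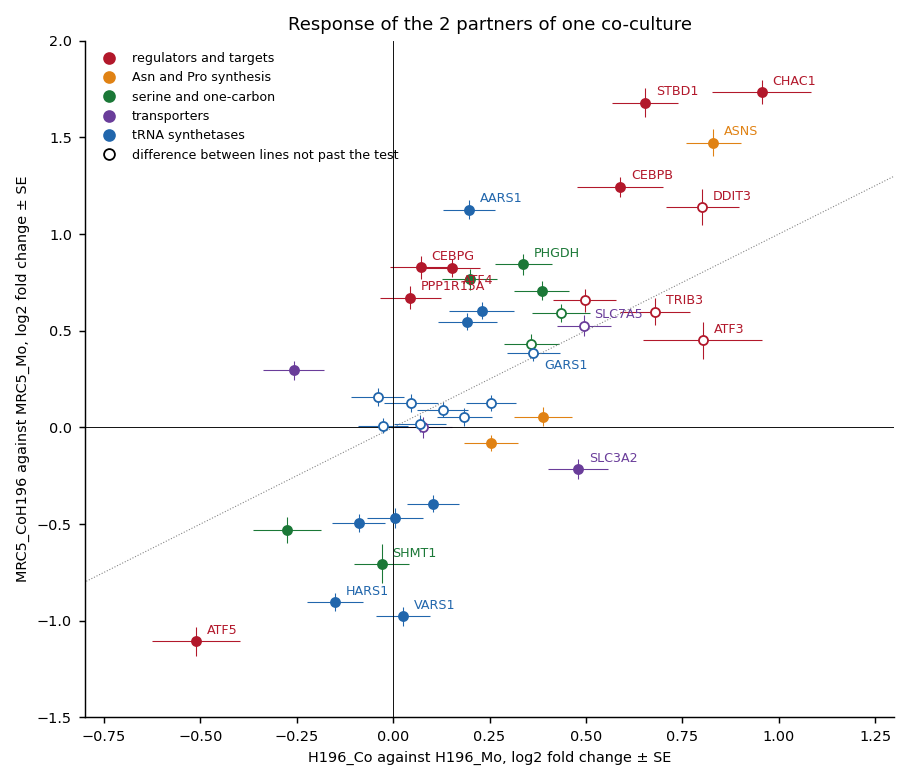
Log2 fold change of each of the 41 genes in H196_Co against H196_Mo (x axis) and in MRC5_CoH196 against MRC5_Mo (y axis), with standard errors, coloured by role. Filled points passed the test of the difference between lines and the dotted line marks equal change; AARS1, STBD1, CEBPG and ATF4 lie above it, VARS1, HARS1 and SLC3A2 below it, and GARS1 and SLC7A5 close to it.

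Levels of the mono-cultures differed by gene. In FPKM, ATF4 was the most abundant of the 41 genes in each of the 5 groups, at 254 ± 4.67 (SD, n = 3) in MRC5_Mo, 405 ± 23.5 in MRC5_CoH196, 201 ± 2.88 in H196_Mo and 211 ± 13.7 in H196_Co. In H196_Co its libraries overlapped those of KARS1, the second in order. SARS1 followed ATF4 in MRC5_Mo, at 149 ± 3.55 FPKM, and SHMT1 was lowest, at 5.24 ± 0.32, with libraries that overlapped those of ATF3 at 5.67 ± 0.56. In MRC5_CoH196 CHAC1 reached 181 ± 14.9 FPKM, a level whose libraries overlapped those of SARS1 at 193 ± 8.45.

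Both mono-cultures were also compared, with TMM-scaled counts in the joint model. By that test MRC5_Mo cells had higher values than H196_Mo cells for 27 of the 41 genes and lower values for 5, where 42.6% and 44% of 13585 genes did. As DEGs 21 were higher and 4 lower, against 30.2% and 31.5%. The directions depend on the scale, because TMM factors of this model were 0.921 to 0.923 in MRC5_Mo and 1.23 to 1.26 in H196_Mo libraries. On mean FPKM, which was not tested across both tables, 21 of the 41 genes were higher in MRC5_Mo and 20 lower. The 6 genes called higher whose mean FPKM was lower in MRC5_Mo were DDIT3, SLC7A5, SLC38A1, EPRS1, NARS1 and HARS1, such as NARS1 at 71.8 FPKM in MRC5_Mo and 87.6 in H196_Mo, and of these the libraries of DDIT3, EPRS1 and HARS1 overlapped in FPKM. The other 21 genes called higher and all 5 called lower had the same direction in FPKM.

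CHAC1 differed most. Its mean was 60.9 FPKM in MRC5_Mo and 2.22 in H196_Mo, a log2 ratio of 4.78 in FPKM, and the difference in TMM-scaled counts was 4.50 ± 0.10. PPP1R15A (2.71 ± 0.07 in TMM-scaled counts), CEBPB (2.35 ± 0.09), WARS1 (1.76 ± 0.06) and ALDH18A1 (1.66 ± 0.05) were also higher in the fibroblasts, with log2 ratios of mean FPKM of 2.27, 1.94, 1.28 and 1.22. SHMT1, at 5.24 FPKM in MRC5_Mo and 28.02 in H196_Mo, had a log2 ratio of -2.42 in FPKM and a difference of -1.99 ± 0.07 in TMM-scaled counts. LARS1 (-0.83 ± 0.05), KARS1 (-0.74 ± 0.05), VARS1 (-0.63 ± 0.06) and ASNS (-0.43 ± 0.07) were lower in MRC5_Mo as well, and their log2 ratios of mean FPKM were -1.27, -1.17, -1.08 and -0.82. These differences are between 1 fibroblast and 1 tumour line, each grown in its own medium.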

How the data were processed

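Poly(A) RNA of 15 libraries was read on a BGIseq-500. Reads were cleaned by the authors with SOAPnuke, and the submitters' processing notes name HISAT2 2.1.0, Bowtie2 2.3.4.3 and RSEM 1.3.1, with GRCh38.p13 as build. Expected counts per gene, not normalized, and FPKM values were deposited by the authors in 1 table per cell line. The tables' other columns were not used here, namely the authors' own DESeq2 results (fold changes, p and q) and 30 further per-library columns (12 for H196, 18 for MRC5).

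After rounding of the expected counts, models were fitted with edgeR 4.0.16 under R 4.3.3 (TMM, filterByExpr by group, quasi-likelihood test, Benjamini-Hochberg adjustment over all tested genes). The 9 MRC5 libraries, the 6 H196 libraries and all 15 over genes in both tables each formed a model, and 6 comparisons were tested at an adjusted p of 0.05. The models were tested on simulated data. The standard error of a log2 fold change is its size over the root of its F statistic. Alternatives were DESeq2 1.42.0 (size factors, Wald test), no filter or a filter of 10 counts, limma 3.58.1 on log2(FPKM + 1) and log2(FPKM + 0.1), only the groups compared, the replicate number as a block, and each library left out. Same-numbered libraries correlated between -0.116 and 0.081 (MRC5) and -0.151 and 0.033 (H196) in their deviations from group means, so the numbers were not taken as pairs. At these depths a count of 0 allows 3 counts, or 0.156 to 0.187 CPM. Counting error weighs more for the members with the lowest counts. In H196_Mo libraries these were 64 to 92 for ATF3 and 73 to 87 for CHAC1.

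The genes, lists and tests were chosen with earlier results of these data known. All 41 genes are accounted for. Values per library are given for ATF4, DDIT3 and at least the 5 largest rises and falls among genes that passed in each comparison with a mono-culture. From other lists at most the 3 largest called changes each way are named. FARSA, MTHFD2L and GCSH were added after their values were seen. Promoters came from RefSeq (GRCh38.p14). Results of 3 genes of the further lists are not reported here.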

Additional observations from a re-analysis of the deposited data

Results flagged for a closer look

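For 25 of the 41 genes the change in MRC5_CoH196 against MRC5_Mo differed from that in H196_Co against H196_Mo by the joint edgeR test with Benjamini-Hochberg adjustment, which is what brought them here. The difference (fibroblast change minus tumour-cell change, log2) was positive for STBD1 (1.0), AARS1 (0.90), CHAC1 (0.75), CEBPG (0.73), ATF4 (0.64), CEBPB (0.63), ASNS (0.61), PPP1R15A (0.60), PSAT1 (0.54), SLC38A1 (0.53), PHGDH (0.48), CARS1 (0.35), SARS1 (0.33) and MTHFD2 (0.30). It was negative for VARS1 (-1.03), HARS1 (-0.78), SLC3A2 (-0.72), SHMT1 (-0.70), ATF5 (-0.62), KARS1 (-0.52), WARS1 (-0.50), RARS1 (-0.43), ALDH18A1 (-0.36), PYCR1 (-0.36) and PSPH (-0.28). Of all genes tested, 51.2% passed this test in either direction. The PSPH call was lost with DESeq2 size factors, with the DESeq2 Wald test and in 9 models that left out 1 library. Groups of 3 libraries are too small for a test of single outlying libraries. The cause of these differences was not tested.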

How the results depend on the processing

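The scale mattered most for small changes. On log2(FPKM + 1) and on log2(FPKM + 0.1), 15 of the 41 genes were lower in MRC5_CoH196 against MRC5_Mo in place of 9, and 7 were DEGs downward in place of 4. The values that changed sign there, on the first and the second scale, were those of IARS1 (-0.079 and -0.080), LARS1 (-0.046 and -0.048), TARS1 (-0.015 and -0.016) and YARS1 (-0.046 and -0.047), and in MRC5_CoH196 against MRC5_CoH69 those of LARS1 (-0.028 and -0.029), TARS1 (-0.0036 and -0.0037) and YARS1 (-0.017 and -0.018), where 9 genes were DEGs upward in place of 15. The FPKM scale moved the share of higher calls among all genes from 50.04% to 34.8% in MRC5_CoH196 and from 60.8% to 36.4% in H196_Co, and DEGs upward in H196_Co from 7 to 3, or 4 with the smaller pseudocount. In MRC5_CoH69, 0 genes passed in either direction on FPKM, 2 passed as higher with the DESeq2 Wald test and 2 as lower without a filter on low counts. Leaving out 1 library gave 0 to 4 passed genes there (0 to 2 higher, 0 to 2 lower), with the 4 without MRC5_Mo replicate 1. In H196_Co it gave 1 to 3 lower genes and 0 to 1 DEGs downward, the 1 DEG without H196_Mo replicate 1, and 17 to 24 higher genes. In MRC5_CoH196 it gave 24 to 26 higher and 9 lower genes. With the replicate number as a block, 25 genes rose and 9 fell in MRC5_CoH196, and 18 rose and 3 fell in H196_Co. The block ended the IARS1 call in MRC5_CoH196 and the AARS1 call in H196_Co, but the numbers are not known to pair the samples. Other counts of members stayed within 1.5 times the reported ones.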
